A study of Mus musculus with 12 samples.

Results

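Expression of 10 genes for cytosolic and ER chaperones was followed across mouse liver cells sorted by EGFP: Hspa1a, Hspa1b, Hspa5, Hspa8, Hspb1, Hsph1, Hsp90aa1, Hsp90ab1, Dnaja1 and Dnajb1. They were chosen by symbol from a deposited table of 54227 genes, and all 10 were among the 16128 genes tested, whose normalised counts averaged 10 or more over the libraries. The cells came from livers of C57Bl/6 mice that all carried a Sox9EGFP transgene and were fasted for 16 h, per the labels. FACS separated them into 4 populations, here called neg (EGFP-negative), sub (the gate labelled sublow), low and high, with 12000 cells collected into lysis buffer for each. There were 3 libraries per population, 12 in all, numbered 1 to 3 as in the labels. The construct behind the transgene and the age and sex of the mice are not given in the sources used here. Nothing in the labels says whether libraries came from separate animals, so the p-values below concern libraries. They rest on a spread between libraries that the tests estimate partly from other genes.

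Heat shock proteins are molecular chaperones that bind unfolded or partly folded proteins. Hsp70 proteins bind and release clients in a cycle driven by ATP, J-domain proteins deliver the clients, Hsp110 proteins exchange the nucleotide, and Hsp90 proteins take over folding of kinases and receptors at a later stage. Hspa1a and Hspa1b are the classic inducible genes of the heat shock response, switched on by the transcription factor HSF1 when cells meet heat or other proteotoxic stress, whereas Hspa8 and Hsp90ab1 are made constitutively. Hspa5 encodes BiP, the Hsp70 of the endoplasmic reticulum, which answers to the unfolded protein response instead.

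The sequence just upstream of the start is shown for 3 members, because Hspa1a and Hspa1b share nearly the same promoter and both had their lowest levels in high, and Hspb1 carries the same kind of motif at a much lower level. The sequences are from RefSeq (GRCm38.p6), which held promoters for 7 of the 10 members. Hspa8, Hsp90aa1 and Hsp90ab1 were without an entry. Each run is the 250 bases before the annotated start, 5′ to 3′ on the strand of the gene. Capitals mark 2-unit heat shock elements, searched as GAANNTTC and TTCNNGAA, each of which is its own reverse complement and so reads the same on both strands. Hspa1a lies at chr17:34972157-34972406 on the minus strand, Hspa1b at chr17:34959239-34959488 on the minus strand and Hspb1 at chr5:135887669-135887918 on the plus strand.
Hspa1a: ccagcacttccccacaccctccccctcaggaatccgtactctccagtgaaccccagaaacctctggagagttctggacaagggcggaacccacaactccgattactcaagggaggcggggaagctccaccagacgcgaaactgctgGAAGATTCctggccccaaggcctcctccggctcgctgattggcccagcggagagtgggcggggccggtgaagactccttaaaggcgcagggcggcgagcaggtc
Hspa1b: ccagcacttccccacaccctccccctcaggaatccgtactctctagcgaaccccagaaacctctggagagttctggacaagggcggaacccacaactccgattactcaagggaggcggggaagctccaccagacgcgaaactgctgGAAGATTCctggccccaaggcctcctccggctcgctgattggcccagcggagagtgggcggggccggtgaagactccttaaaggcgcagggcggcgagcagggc
Hspb1: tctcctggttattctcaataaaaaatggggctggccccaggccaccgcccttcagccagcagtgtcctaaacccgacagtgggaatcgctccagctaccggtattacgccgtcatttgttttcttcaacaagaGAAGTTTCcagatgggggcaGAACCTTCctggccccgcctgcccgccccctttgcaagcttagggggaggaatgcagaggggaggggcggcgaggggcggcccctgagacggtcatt
Over the 300 bases from 250 before to 50 after the start, the Hspa1a and Hspa1b windows were identical at 296 of 300 aligned positions (98.7%). Both hold 1 match of 2 units, which begins at position -104, and Hspb1 holds 2, at -117 and -97. A 2-unit match occurred in 15.1% of 32851 RefSeq promoters of this length. The 3-unit forms GAANNTTCNNGAA and TTCNNGAANNTTC, whose letters contain the 2-unit motifs, occurred in 0.603%, and Hsph1 was the member with one. The Hspa5 and Dnajb1 windows held no match, which says only that these letters are not in those windows.

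The deposited values are normalised counts, read counts divided by 1 factor per library, and the recovered totals ran from 8775387 to 15535588 reads per library. The sort was visible in the RNA. Sox9 was at or below 0.691 normalised counts in neg and between 3707 and 17140 in the other 9 libraries. Summed over 10 biliary markers, the level was 21.2 to 412, 19770 to 36031, 66815 to 91812 and 62648 to 68507 in neg, sub, low and high, with Epcam, Spp1, Cftr, Pkhd1 and Cldn4 at 0 in all neg libraries. Summed over 10 endothelial markers it was 140661 to 197518, 34855 to 50677, 1013 to 2520 and 632 to 1520 in neg, sub, low and high. The 10 stellate or mesenchymal markers summed to 19226 to 33332 in neg and 24951 to 35686 in sub but to at most 2488 in low and 1935 in high. The 10 hepatocyte markers summed to 395 to 871, 4621 to 7755, 13834 to 21610 and 17019 to 20762 in neg, sub, low and high. They did not move as a set. In high against neg, 6 had a positive log2 fold change and 3, Apoa1, Cyp2e1 and Cps1, a negative one. Cyp2e1, Cps1 and Serpina1a were at 0 in all high libraries, and Hnf4a, Serpina1a, Fgb and Tat in all neg libraries. Markers of macrophages, lymphocytes and erythroid cells summed to at most 1526, 1108 and 8661 in any library. Lyve1 in low, Eng in high, and Lrat, Colec11 and Hgf in both were at 0 in all 3 libraries. The populations differ in these markers as well as in EGFP. In such bulk samples, fewer cells of a type and less RNA per cell cannot be told apart for any chaperone below.

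Per kb of annotated exon, averaged over the 12 libraries, the Hsp90 genes stood first, with 16736 normalised counts per kb for Hsp90aa1 and 15685 for Hsp90ab1. The inducible Hsp70 genes followed with 12420 for Hspa1b and 6474 for Hspa1a, beside 5989 for constitutive Hspa8 and 1917 for Hspa5. Dnaja1, Hsph1, Hspb1 and Dnajb1 lay between 341 and 684. The order among the 5 highest differed between populations. In neg, Hspa1b had the highest mean, at 13615 counts per kb against 11906 for Hsp90aa1 and 11269 for Hsp90ab1, differences within their SDs. In sub, Hspa1b (15394) lay between Hsp90ab1 (17229) and Hsp90aa1 (13838). In high, Hspa8 (6327) was above Hspa1a (3392), whereas per kb it was below it in the other 3 populations. That order depends on the length used, all annotated exon of a gene, which was 4301 bases for Hspa8 and 2967 for Hspa1a. Without division by length, mean Hspa8 was above mean Hspa1a in sub (26058 against 21887) and low (26389 against 21036). In neg it was just below (23382 against 23845.5). The division of counts between Hspa1a and Hspa1b is itself uncertain. Together the 10 genes held 1.72, 1.94, 2.25 and 1.73% of all normalised counts in neg, sub, low and high. The coefficient of variation within a population averaged 13.1% for Hsp90ab1 and 13.5% for Hspa8, and 48.9% for Dnaja1, against a median of 123% over the tested genes. The median was lower at higher levels, 42.7% over the 2053 genes with a mean of at least 1000 and 17.8% over the 81 with a mean of at least 10000, and 2 of the 5 members in the latter set lay below its median. Hspb1, at 121%, was listed at 0 in 4 libraries, whereas the other 9 members were above 0 in all 12.

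**Figure D1:**
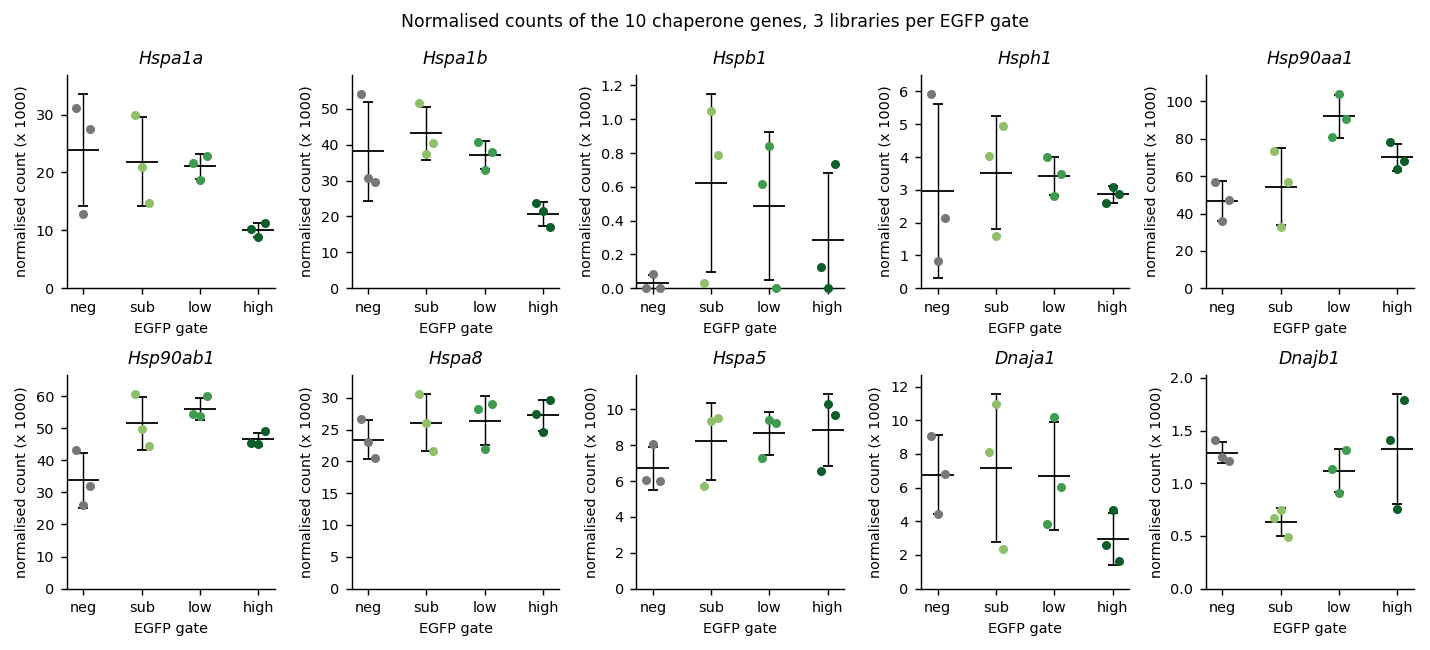
Normalised counts (vertical axis, in units of 1000) of each chaperone by EGFP gate; points are libraries 1 to 3 from left to right, lines are means and bars are SD (n = 3). Hspa1a and Hspa1b sat lowest in high, Hsp90ab1 lowest in neg, Hsp90aa1 highest in low, and Dnajb1 lowest in sub.

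The populations were compared with limma on log2(normalised count + 1), fitted across all 16128 genes and all 12 libraries, with Benjamini-Hochberg adjustment over all genes and a threshold of 0.05 on the adjusted p. The F test over the 4 populations passed for 4 members, Hspa1a, Hspa1b, Hsp90aa1 and Hsp90ab1, beside 4.23% of all genes. Against neg, 1 member passed in sub (1.19% of all genes), 2 in low (4.69%) and 3 in high (4.69%). High against sub gave 1 member (0.986% of all genes), and low against sub gave 0 (0.744%), where 1 member had an unadjusted p under 0.05 in limma (10.2% of all genes), edgeR called 1 (1.11%) and DESeq2 called 0 (9.88%). High against low also gave 0 of 10 members and 0% of all genes in limma, with 3 members at an unadjusted p under 0.05 (4.24% of all genes) and 0 members called by edgeR (0.211%) or DESeq2 (4.01%). The members split in direction. The Hsp90 genes made up every call above neg, and the inducible Hsp70 genes made up every call below neg or sub. The median log2 fold change of the 10 was 0.27 for low against neg, where the median of all genes was 0, and -0.33 for high against low, where it was also 0. These 7 calls depend on how the spread is modelled, on the filter and on the libraries fitted. On the recovered reads edgeR called all 7 and DESeq2 called 1 of them (Hspa1a, high against neg), and limma without its trend of variance on level called 0. Without the filter on low values limma called 1 of the 7 (Hsp90ab1, low against neg). Fits of only the 2 populations compared called 4 of the 7 and lost all 3 in high against neg.

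**Figure D2:**
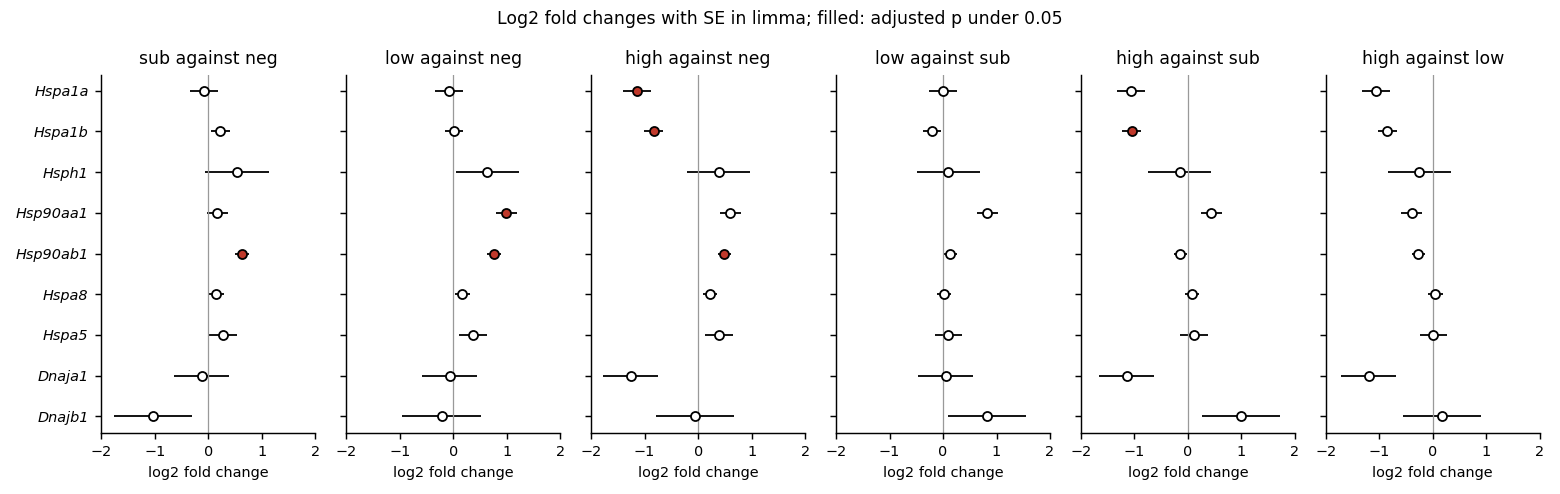
Log2 fold change (horizontal axis) with its SE from limma for 9 members in the 6 comparisons; filled points have an adjusted p under 0.05. Filled points lie left of 0 for Hspa1a and Hspa1b and right of 0 for Hsp90aa1 and Hsp90ab1; Hspb1 is not drawn, because its SE of 3.10 exceeds the axis.

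Hspa1a and Hspa1b encode the inducible cytosolic Hsp70, and their transcripts are 99.2% identical over 2201 bases, so the split of reads between them is uncertain. Hspa1a (chr17:34969190-34972156, 1 exon, minus strand) read 31152, 12826 and 27558 normalised counts in neg 1, 2 and 3, 29997, 20987 and 14678 in sub, 21571, 18678 and 22858 in low, and 10177, 8792 and 11222 in high. Every high library lay below the other 9, and neg, sub and low overlapped. Hspa1b (chr17:34956436-34959238, 1 exon, minus strand) read 54145, 30861 and 29481 in neg, 51599, 37338 and 40508 in sub, 40705, 32980 and 37832 in low, and 23702, 21433 and 17185 in high. The same order held, with the 3 high libraries below the rest. Mean Hspa1a was 2.37 times as high in neg as in high and 2.09 times as high in low as in high, and mean Hspa1b 1.84 and 1.79 times.

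In limma with Benjamini-Hochberg adjustment, Hspa1a fell by 1.15 on the log2 scale from neg to high (log2 fold change -1.15, SE 0.26, adjusted p = 0.0130). Hspa1b fell by 0.83 from neg to high (SE 0.18, adjusted p = 0.00809) and by 1.05 from sub to high (SE 0.18, adjusted p = 0.00438). Hspa1a in high against sub was -1.07 (limma adjusted p = 0.0588) and did not pass, while a fit of those 2 populations alone called it (limma adjusted p = 0.0393). In high against low, neighbouring gates in which all the libraries separated, the log2 fold changes were -1.07 for Hspa1a (limma unadjusted p = 0.00065, adjusted p = 0.676) and -0.85 for Hspa1b (limma unadjusted p = 0.000126, adjusted p = 0.293), and neither passed. With a block for replicate number, Hspa1b passed in that comparison (limma adjusted p = 0.00747) and Hspa1a did not (0.225). A fit of low and high alone called both (limma adjusted p = 5.66e-11 and 8.85e-17), among 33 genes in all, with SEs of 0.14 and 0.087 where the fit over all libraries had 0.26 and 0.18. In limma such SEs come partly from a trend over genes at a like level, so they do not measure the spread of these genes' own libraries alone. The same kind of fit for neg and high ended both calls there (limma adjusted p = 0.0595 for Hspa1a and 0.0668 for Hspa1b). Without the filter on low values, limma gave adjusted p = 0.0871 for Hspa1a and 0.0710 for Hspa1b from neg to high and 0.0564 for Hspa1b from sub to high. The fall of Hspa1a from neg to high did not pass without neg 1 (adjusted p = 0.0948), neg 3 (0.0907), high 1 (0.0548), high 2 (0.0835) or high 3 (0.0523). Without neg 1, the fall of Hspa1b from neg to high was -0.55 (limma adjusted p = 0.0412). It did not pass without high 3 (adjusted p = 0.0891) or with TMM scaling (0.0671), and that from sub to high did not pass without sub 1 (0.0603) or high 3 (0.0764).

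Adding the pair removes the question of which gene a read belongs to, a step chosen after the data were seen. The sum averaged 62008 ± 21245 (SD, n = 3), 65036 ± 14428, 58208 ± 5728 and 30837 ± 2787 in neg, sub, low and high. The high libraries lay between 28407 and 33879, below the lowest of the other 9 at 43688. Fitted as 1 gene, the pair was lower in high by 0.96 against neg (log2 fold change -0.96, limma adjusted p = 0.00155) and by 1.06 against sub (-1.06, adjusted p = 0.00282), while high against low was -0.92 (limma adjusted p = 0.237). Hspa1a gave 38.1, 33.1, 36.2 and 32.9% of the pair in neg, sub, low and high, with SD between 1.51 and 9.57 percentage points. Markers moved with part of this pattern. Endothelial and stellate sums were low in both low and high, while the Hspa1 pair was 1.89 times as high in low as in high, and the biliary sum of the low libraries (66815 to 91812) overlapped that of high (62648 to 68507). The part of cell types in the result was not tested.

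Hsp90aa1 encodes the stress-inducible form of cytosolic Hsp90. It read 57030, 35952 and 47427 in neg, 73373, 32732 and 57090 in sub, 81099, 103977 and 90758 in low, and 78105, 63898 and 68011 in high. The 3 low libraries were above the other 9, high lay above neg without overlap, and sub overlapped both neg and high. Means were 46803 ± 10553 (SD, n = 3), 54398 ± 20454, 91945 ± 11485 and 70004 ± 7310 in neg, sub, low and high. Hsp90aa1 rose by 0.99 on the log2 scale from neg to low (SE 0.20, limma adjusted p = 0.00499), a call that did not pass without neg 2 (0.0578), without low 2 (0.0534) or without the filter on low values (0.0534). It was 0.83 higher in low than in sub (limma adjusted p = 0.0546) and 0.60 higher in high than in neg (limma adjusted p = 0.0926), and neither passed. Low against sub was 0.50 without sub 2 (limma adjusted p = 0.229) and passed without sub 1 (1.08, adjusted p = 0.0286), and high against neg passed without sub 2 (0.60, adjusted p = 0.0167). From low to high the log2 fold change was -0.39 (limma unadjusted p = 0.0606, adjusted p = 1). The fit of low and high alone called that difference (limma adjusted p = 3.51e-16), with an SE of 0.041 in place of 0.20. That SE comes partly from the trend over other genes. The coefficient of variation of Hsp90aa1 itself was 12.5% in low and 10.4% in high, so the p-value does not measure the spread of its own libraries alone. The fit of sub and low alone called low against sub (limma adjusted p = 0.0431).

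Hsp90ab1, the constitutive cytosolic Hsp90, was lowest in neg. Its normalised counts were 43149, 26068 and 32172 in neg, 60669, 49932 and 44410 in sub, 54441, 53851 and 60054 in low, and 45452, 45213 and 49053 in high. All 9 EGFP-positive libraries lay above the 3 of neg, and high lay below low without overlap. Means were 33797 ± 8655 (SD, n = 3), 51670 ± 8268, 56115 ± 3424 and 46573 ± 2152 in neg, sub, low and high, so low was 1.66 times neg. In limma, Hsp90ab1 rose against neg by 0.63 in sub (SE 0.13, adjusted p = 0.0141), by 0.76 in low (SE 0.13, adjusted p = 0.00120) and by 0.49 in high (SE 0.13, adjusted p = 0.0321). The rise in low kept its call without any 1 of the 12 libraries. The rise in sub did not pass without neg 2 (0.0914), neg 3 (0.0751), sub 1 (0.136) or sub 2 (0.0681), or without the filter on low values (0.156). The rise in high did not pass in 9 of the 12 fits with 1 library left out: without neg 2 (log2 fold change 0.32, adjusted p = 0.184), neg 3 (0.121), high 1 (0.0931), high 2 (0.0958), high 3 (0.160), sub 2 (0.0531), low 1 (0.0563), low 2 (0.0579) or low 3 (0.0554). It also missed the threshold without the filter (limma adjusted p = 0.169), in a fit of neg and high alone (0.116) and when libraries were scaled to equal totals (0.0508). High against low was -0.27 (limma adjusted p = 1), and the fit of low and high alone called it (limma adjusted p = 0.00116).

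The members were also counted by whether the libraries of 2 populations were free of overlap, with the share of all tested genes given for each direction. High lay below low for 4 members (3.28% of all genes) and above it for 0 (4.06%). High lay above neg for 2 members (10.2%) and below it for 2 (8.61%), and low lay above neg for 2 (8.38%) and below it for 0 (8.52%). Sub lay above neg for 1 member (4.69%) and below it for 1 (4.99%), low above sub for 2 (5.75%) and below it for 0 (5.99%), and high above sub for 1 (7.2%) and below it for 2 (5.91%). The 4 members lower in high than in low were Hspa1a, Hspa1b, Hsp90aa1 and Hsp90ab1. None of them passed the adjusted threshold there in the fit over all libraries without a replicate block. All of them passed in the fit of low and high alone, whose SEs come partly from other genes.

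The balance between the Hsp90 and inducible Hsp70 genes was followed within each library. The summed Hsp90 genes over the summed Hspa1 genes gave a ratio of counts of 1.17, 1.42 and 1.40 in neg, 1.64, 1.42 and 1.84 in sub, 2.18, 3.06 and 2.48 in low, and 3.65, 3.61 and 4.12 in high. The ratio was higher in every high library than in every low library, and higher in every low library than in neg or sub, whereas neg and sub overlapped (sub 2 at 1.417 and neg 2 at 1.420). With the counts of the near-identical annotated copies of Hsp90aa1 added, a sum chosen after the data were seen, the ratio was 1.19, 1.42 and 1.42 in neg and 1.66, 1.72 and 1.86 in sub, without overlap. The Hspa1 pair over Hspa8, its constitutive relative, averaged 2.63 ± 0.668 (SD, n = 3), 2.49 ± 0.228, 2.22 ± 0.131 and 1.14 ± 0.158 in neg, sub, low and high. As ratios within a library, these values do not depend on the scaling between libraries, and they were not tested.

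**Figure D3:**
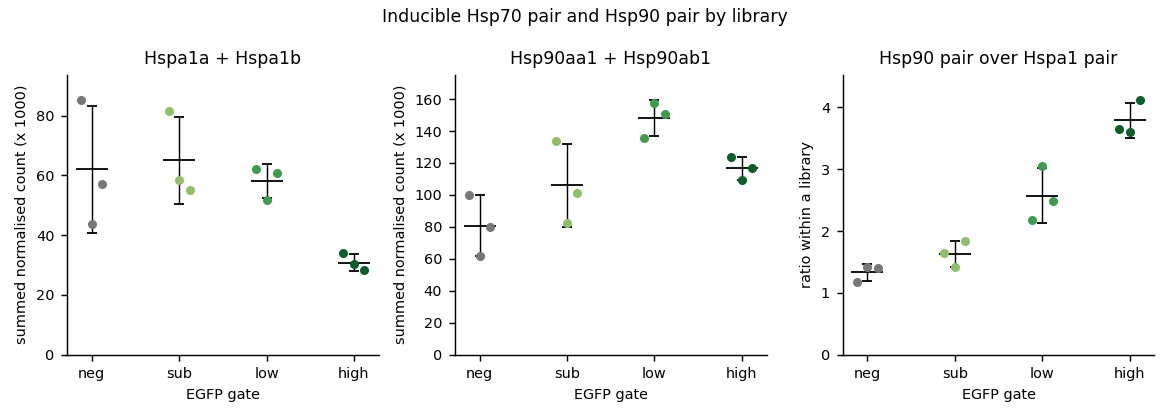
Summed normalised counts (in units of 1000) of Hspa1a and Hspa1b, of Hsp90aa1 and Hsp90ab1, and the ratio of the Hsp90 sum to the Hspa1 sum in each library, by EGFP gate; points are libraries, lines are means and bars are SD (n = 3). The Hspa1 sum is lowest in high, the Hsp90 sum is highest in low, and the ratio runs from 1.17 in neg 1 to 4.12 in high 3.

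Hspa8, which encodes the constitutive Hsc70, held a narrow range. Its values were 26588, 23031 and 20528 in neg, 30519, 26101 and 21553 in sub, 28180, 21965 and 29023 in low, and 27360, 24641 and 29632 in high. All 4 populations overlapped, the largest of its 6 log2 fold changes was 0.22 (high against neg, SE 0.14), and the F test did not pass (limma adjusted p = 0.735). Hspa5 (BiP) also overlapped between all populations. It read 6042, 8094 and 5976 in neg, 5745, 9378 and 9545 in sub, 7295, 9415 and 9262 in low, and 6541, 10278 and 9690 in high (F test, limma adjusted p = 0.735). Library 1 was the lowest of its 3 for Hspa5 in sub, low and high.

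Hsph1 encodes Hsp110, the exchange factor that also dissolves aggregates together with Hsp70. It read 5922, 825.5 and 2133 in neg, 4030, 1606 and 4934 in sub, 3991, 2823 and 3474 in low, and 2594, 3100 and 2885 in high. Neg held both the highest and the lowest library, neg 1 and neg 2, which are also the most and the least deeply sequenced. None of its comparisons passed (F test, limma adjusted p = 0.835).

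Dnaja1 and Dnajb1 encode J-domain partners of Hsp70. Dnaja1 read 9092, 4406 and 6821 in neg, 8133, 10985 and 2379 in sub, 3858, 10172 and 6055 in low, and 2613, 4657 and 1628 in high. High against neg was -1.26 (SE 0.51, limma adjusted p = 0.203), with overlapping libraries. Dnajb1 was the member with its lowest values in sub. It read 1409, 1249 and 1216 in neg, 667.7, 749.9 and 488.8 in sub, 1131, 908.3 and 1319 in low, and 1412, 760.0 and 1794 in high. The 3 sub libraries lay below the other 9, although high 2 exceeded sub 2 by little. Mean Dnajb1 was 2.03 times as high in neg as in sub, but the log2 fold change of -1.04 had an SE of 0.73 and did not pass (limma adjusted p = 0.703), and neither did low against sub (0.82, adjusted p = 0.738) or high against sub (0.99, adjusted p = 0.685).

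Hspb1, the small heat shock protein Hsp25, was low and scattered. Its values were 0, 84.4 and 0 in neg, 31.7, 1046 and 788.0 in sub, 616.7, 842.0 and 0 in low, and 126.3, 0 and 735.9 in high. The EGFP-positive libraries thus ran from 0 to 1046, and none of its comparisons passed (F test, limma adjusted p = 0.696).

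Counts of 3 members depended on annotated near-identical copies, whose own counts differed between libraries. Hsp25-ps1 matches Hspb1 at 99.4% over 630 bases and read 641.9, 732.7 and 0 in sub, 0, 0 and 649.3 in low, 0, 302.2 and 0 in high, and 0 in every neg library. It was above 0 in low 3 and high 2, libraries that listed Hspb1 at 0. Summed with this copy, Hspb1 read 0, 84.4 and 0 in neg, 673.6, 1779 and 788.0 in sub, 616.7, 842.0 and 649.3 in low, and 126.3, 302.2 and 735.9 in high, so that every EGFP-positive library lay above neg. The sum was higher than in neg by 7.80 on the log2(value + 1) scale in sub (limma adjusted p = 0.0410), by 7.31 in low (adjusted p = 0.0263) and by 6.12 in high (adjusted p = 0.0663), and high did not pass. These fold changes depend on the added 1, since 2 neg libraries were at 0. Summing copies was chosen after the data were seen.

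Dnaja1 has 3 such copies, Gm15542 (99.4% identical), Gm7816 (99.3%) and Gm6335 (97.1%), which held 34.4, 21.9, 28.9 and 51.5% of the summed counts in neg, sub, low and high. With them, Dnaja1 read 12684, 7834 and 10456 in neg, 8136, 12252 and 7148 in sub, 9141, 10182 and 8922 in low, and 6748, 6085 and 5529 in high. The high libraries then lay below the other 9, but the log2 fold changes of -0.73 against neg (limma adjusted p = 0.0939), -0.55 against sub (0.423) and -0.62 against low (1) did not pass. For Hsp90aa1 the copy that mattered was Gm12346 (99.5% over 2255 bases), with 16150 normalised counts in sub 2 and 216 to 1686 elsewhere. With its copies, sub 2 went from 32732 to 50446, and low against sub (0.62, limma adjusted p = 0.0437) and high against neg (0.59, limma adjusted p = 0.0162) then passed. Opposite-strand genes also overlap 2 members. Gm20481 shares 564 exonic bases with Hspa1a and averaged 27.0 normalised counts, and Smu1 shares 608 with Dnaja1 and averaged 251, 55.7, 597 and 1108 in neg, sub, low and high, so it was highest in the population in which Dnaja1 had its lowest mean. Whether counting used strand is not given in the sources used here, and the part of Smu1 reads in the Dnaja1 counts was not tested.

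**Figure D4:**
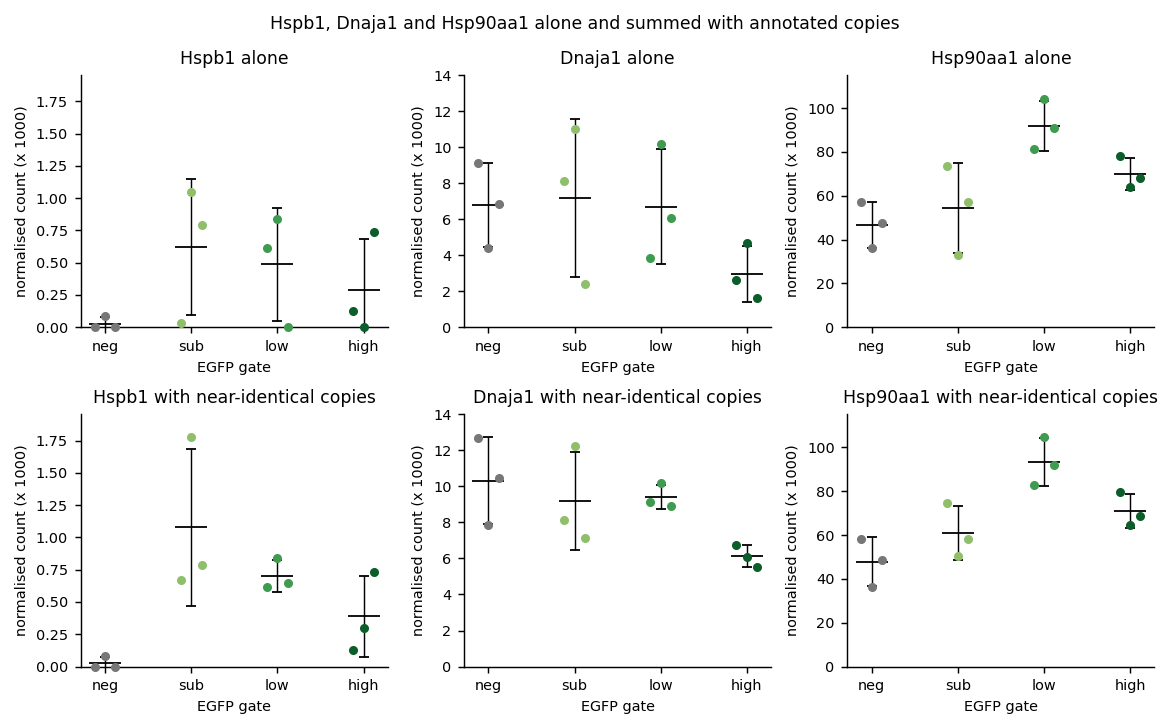
Normalised counts (in units of 1000) of Hspb1, Dnaja1 and Hsp90aa1 alone (top row) and summed with their near-identical annotated copies (bottom row), by EGFP gate; points are libraries, lines are means and bars are SD (n = 3), cut at 0. With copies, the 3 neg libraries of Hspb1 and the 3 high libraries of Dnaja1 lie below all others, and sub 2 of Hsp90aa1 moves from 32732 to 50446.

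The partners and regulators of these chaperones were tested as lists. Of 16 co-chaperones and regulators of HSF, 15 were tested and 1, Ptges3, the Hsp90 co-chaperone p23, passed in low against neg and in high against neg, where 4.69% of all genes passed. It read 0, 244.6 and 0 in neg, 380, 1020 and 1851 in sub, 803, 580 and 562 in low, and 1144, 837 and 1605 in high. It was higher than in neg in low (log2 fold change 6.68, SE 1.83, limma adjusted p = 0.0410) and in high (7.53, SE 1.83, adjusted p = 0.0203), sizes that depend on the added 1. On the recovered reads, edgeR called 0 genes of this list in any comparison (3.73% of all genes in low against neg) and DESeq2 at most 2, in low against neg (14.6%). Hsf1 averaged 500, 100, 298 and 213 in neg, sub, low and high, with libraries at 0 in 3 of the 4 populations, and Bag3, an HSF1 target that links Hsp70 to autophagy, averaged 2160, 3574, 3268 and 3090. Neither passed in any comparison.

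Among other folding machines, 0 of 14 further J-domain and small heat shock genes, 0 of 7 mitochondrial chaperones and 0 of 18 ER chaperone and unfolded protein response genes passed in any of the 6 limma comparisons, in which 0 to 4.69% of all genes passed. In low against sub, 4 of the 7 mitochondrial genes had an unadjusted p under 0.05 in limma (10.2% of all genes), and DESeq2 called 3 (9.88%). In low against neg, the limma count at an unadjusted p under 0.05 was 3 of 14 for the J-domain and small heat shock list and 2 of 18 for the ER list (16% of all genes), and DESeq2 called 4 and 1 (14.6%). On the recovered reads edgeR called 0 genes of these 3 lists in any comparison. The summed mitochondrial chaperones averaged 3020, 3284, 6664 and 7157 in neg, sub, low and high, and all 7 had a positive log2 fold change in low against sub (49.3% of all genes), none past the threshold. Hspe1 and Grpel1 were at 0 in all 3 sub libraries, so their fold changes depend on the added 1. Hspd1, the mitochondrial Hsp60, averaged 168, 351, 680 and 520. The ER list that belongs with Hspa5 summed to 37522, 36131, 43614 and 45087, and its Hsp90, Hsp90b1, averaged 7968, 6151, 8424 and 7003. Of the 8 subunits of TRiC, the cytosolic chaperonin, Cct8 passed in low against neg (log2 fold change 5.68, limma adjusted p = 0.0474) and in high against neg (5.94, adjusted p = 0.0377), each beside 4.69% of all genes. At an unadjusted p under 0.05 limma gave 2 of 8 in low against neg (16% of all genes) and 3 of 8 in high against neg (16.4%). In both comparisons DESeq2 called 1 subunit (14.6% and 14% of all genes) and edgeR called 0 (3.73% and 3.84%).

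**Figure D5:**
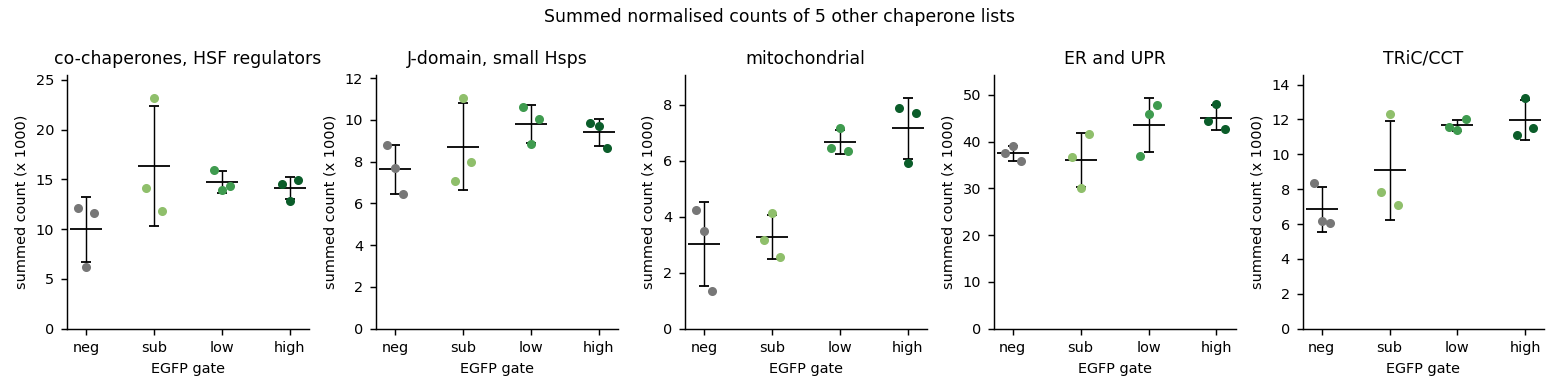
Summed normalised counts (in units of 1000) of 5 lists of other chaperones and regulators by EGFP gate; points are libraries, lines are means and bars are SD (n = 3). The mitochondrial sums of the low and high libraries lie above those of neg and sub, and the other lists overlap between neighbouring gates.

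Immediate early genes, which dissociation of tissue is known to induce along with Hspa1a and Hspa1b, were tested as a list of 10. By limma, 4 of them rose from neg to sub (1.19% of all genes passed in either direction), 6 from neg to low (4.69%), 7 from neg to high (4.69%), 3 from sub to high (0.986%) and 1, Fosb, from sub to low (log2 fold change 0.73, limma adjusted p = 0.0114, beside 0.744% of all genes). High against low gave 0 in limma, with 3 at an unadjusted p under 0.05 (4.24%) and 0 by edgeR (0.211%) or DESeq2 (4.01%). In the other 5 comparisons edgeR called as many genes of the list as limma, while DESeq2 called 5 from neg to sub (10.5% of all genes), 6 from neg to low (14.6%), 7 from neg to high (14%), 1 from sub to high (9.21%) and 0 from sub to low (9.88%). Dusp1 did not pass and had negative log2 fold changes against neg in sub (-0.19), low (-0.31) and high (-0.74). Their sum averaged 94570, 166673, 223550 and 241219 in neg, sub, low and high. Atf3 was 3.86 higher in high than in neg on the log2 scale (SE 0.20, limma adjusted p = 3.32e-10), where Hspa1a was 1.15 lower. Mitochondrial rRNA was 2.10 to 2.78% of normalised counts in neg and 4.98 to 6.00% in the other populations. The part of dissociation or RNA quality in the chaperone levels was not tested.

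The genes most like the 3 members with the highest means were sought among 2044 non-member genes with a mean of at least 1000, by Pearson's r of log2(normalised count + 1) over the 12 libraries. For Hsp90ab1 they were Ccdc88c (r = 0.965), Eif3a (0.933) and Rlf (0.903). For Hsp90aa1 they were Atp5a1 (0.891), Mdn1 (0.887) and Rpl4 (0.879), of which Rpl4 averaged 2177, 2368, 5042 and 2608 in neg, sub, low and high. For Hspa1b they were Rmrp (0.852), the RNA of the RNase MRP complex, Zcchc14 (0.824) and Lgals3bp (0.799). Rmrp averaged 19530, 18388, 15776 and 12103 in neg, sub, low and high. These are descriptions over libraries that share 4 populations and 1 scaling.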

How the data were processed

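Total RNA of 12000 sorted cells per library was treated with DNase for 30 min and made into libraries with a random-primed total-RNA kit for small inputs (Takara SMARTer Stranded Pico v2), per the labels' protocols. The file the authors deposited holds a normalised count signal for each gene in 12 columns. Salmon, DESeq2 1.26.0 and mm10 are named, with no role or order, per the submitters' processing notes. Annotation, filters and use of strand are not given in the sources used here. Dividing a column by its lowest nonzero value gave a whole number for 100% of its nonzero values (tolerance 0.02), and these multiples are called recovered reads. They may be rounded estimates. Reads carry no stated molecular identifiers, so depth covers counting error only.

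Genes with a mean of at least 10 (16128, with 99.9% of the summed values) were tested with limma 3.58.1 in R 4.3.3 on log2(value + 1), with a variance trend and population as the only term. Fold changes are on that scale, and those of genes with libraries at 0 depend on the added 1. Alternatives included edgeR 4.0.16 and DESeq2 1.42.0 on recovered reads, other pseudocounts (0.5 and 5), filters, scalings, a replicate block and leaving out each library. The fits were also run on simulated data with the same setting of spread for every gene. The real genes differ widely in spread, so that run does not show how the fits perform on these data.

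Positions follow GRCm38 with GENCODE M21, and near-identical transcripts were found with BLAST 2.17.0. The genes named were the 10 members in every comparison, Hsf1, Bag3, Hsp90b1 and Hspd1, list genes past the threshold (at most 4 per list and comparison), and the 3 genes most like each of the 3 highest members. Of the immediate early genes named by that rule, Atf3 and Fosb are given with values. Dusp1, Hspe1 and Grpel1 fall outside the rule and were named after their values were seen. The members and lists were chosen with earlier results of these data known.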

Additional observations from a re-analysis of the deposited data

How the results depend on the processing

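The 17 log2 fold changes examined were those past the threshold or with libraries free of overlap. None changed sign in 439 alternative values, an outcome largely fixed by that choice. Other filters, the variance trend and the replicate block leave the fold change as it is. Leaving out a library cannot reverse it where libraries do not overlap. Of the 439 values, 367 kept their side of the threshold, 47 lost the call and 25 gained one. The number of members called moved more. Without the variance trend and without the filter on low values it was 0 for sub against neg (1 in the fit reported), high against neg (3), high against sub (1) and the F test (4), and low against neg (2) gave 0 without the trend and 1 without the filter. DESeq2 called 0, 1, 0 and 0 in the same 4 tests and 0 in low against neg. Low against sub (0) gave 1, Hsp90aa1, with a pseudocount of 5, TMM, edgeR, the 2-population fit or summed copies. High against sub gave 2 with a pseudocount of 5, array weights, edgeR or the 2-population fit. Summed copies gave 2 in sub against neg. High against neg gave 4, with Hsp90aa1 added, with a pseudocount of 5, edgeR or summed copies. With TMM its count was 3, but Hsp90aa1 was gained (limma adjusted p = 0.0366) and Hspa1b was lost (0.0671). The 2-population fit gave 0 in high against neg and 4 in high against low, where its SE for Hsp90aa1 was 0.041 against 0.20 over all libraries. That SE comes partly from a trend over other genes. Leaving out 1 library gave 0 to 1 for sub against neg and low against sub, 1 to 2 for low against neg, 0 to 3 for high against neg, 0 to 2 for high against sub and 1 to 4 for the F test.

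Over all genes the calls ranged over the alternatives from 73 to 1698 in sub against neg (192 in the fit reported), 10 to 1593 in low against sub (120), 0 to 646 in high against low (0), 435 to 2352 in low against neg (757), 424 to 2257 in high against neg (757), 46 to 1485 in high against sub (159) and 509 to 930 in the F test (682). Each highest value came from DESeq2. TMM scaling moved the median log2 fold change of all genes from 0.13 to 0.28 in high against neg and from 0.20 to 0.31 in high against sub.

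The column names carry 1 tag per replicate number, shared by the 4 populations, and the labels do not say what it marks. Deviations of same-numbered libraries correlated from -0.0161 to 0.0266 over 18 pairs, none over 0.1, and 8 of 12 libraries went best with their own number. Over 2053 genes with a mean of at least 1000, a check added after seeing the data, 1 of 18 pairs was over 0.1 and 7 of 12 libraries went best with their own number. Over all tested genes the same-numbered pairs averaged 0.0088 and the others -0.0044. Most genes vary widely between libraries, so such small correlations cannot settle whether the numbers mark pairs. The fit reported does not treat them as pairs, although Hspa1b was highest in library 1 of every population. With the replicate block, low against sub gave 1 member (Hsp90aa1, limma adjusted p = 0.0152) and high against low 1 (Hspa1b, 0.00747). The block gave 4 in high against neg (Hsp90aa1 added, limma adjusted p = 0.0298) and 2 in high against sub (Hspa1a added, 0.0209).

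With 3 libraries per population, the median SE over tested genes was 2.35 on the log2 scale, and that of Hspb1 was 3.10.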
